A study of Mus musculus with 16 samples.

Results

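Neurog1, Neurod1, Kit, Lgr5, Sox11, Hes6 and St18 are 7 genes used to mark the globose basal cells of the olfactory epithelium and the young neurons they give rise to. They were found by the gene symbol of the array annotation, which gave 1 probe set each for 6 of the 7, out of 22206 probe sets and 19505 named genes. Neurod1 had no row under its symbol and is not analysed here. They are a named list with no cut-off on signal, chosen with earlier results of these data known.

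The olfactory epithelium replaces its sensory neurons throughout life. Globose basal cells divide beneath the neurons, and a cascade of basic helix-loop-helix transcription factors, in which Neurog1 acts before Neurod1, turns their daughters into immature and then mature olfactory sensory neurons. Horizontal basal cells form a reserve that divides mainly after injury. Kit is a receptor tyrosine kinase carried by part of the globose basal cells, and it is also a defining receptor of mast cells and of blood progenitors. Lgr5 is a receptor for R-spondins that raises Wnt signalling and marks stem cells in several epithelia.

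The libraries came from S100a5-tauGFP mice on a C57BL/6 background, in which a GFP fusion reports the activity of S100a5, a calcium-binding protein gene that responds to odor stimulation in mature olfactory sensory neurons. In all, 24 mice of both sexes, 7 to 12 weeks old, spent 40 hours in chambers under an air flow of 3.1 L/min, and after the first 26 hours they received 10-second pulses every 20 minutes of isoamyl acetate (odor) or of filtered air (vehicle). Olfactory mucosa was dissociated and sorted by fluorescence in pools of 3 mice, and both the cells titled GFP+ and those titled GFP- of every pool were hybridised, which gives 8 pools with 2 libraries each. The 16 libraries make 4 groups of 4 pools each, titled GFP+ with odor or with vehicle, and titled GFP- with odor or with vehicle.

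The titles and another label disagree. The cell type field names the other GFP sign in 16 of 16 samples. S100a5, whose activity the reporter follows, was lower in the library titled GFP+ in 8 of 8 pools, with log2 differences of -1.45 to -0.86. Its mean with odor was 15.49 ± 0.31 in titled GFP+ against 16.75 ± 0.18 in titled GFP- libraries, and with vehicle 15.21 ± 0.47 in titled GFP+ and 16.39 ± 0.20 in titled GFP- libraries (SD, n = 4 each). The groups are therefore called by their titles throughout, and every direction of a sort difference turns round if the cell type field is the correct label.

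All values are log2 signals as deposited, so a difference of 1 is a factor of 2. Omp, the olfactory marker protein of mature neurons, averaged between 18.22 and 18.45 in the 4 groups, with every library far above the background level. The first principal component held 74.0% of the variance and parted the libraries by titled sort. The array medians lay between 6.79 and 6.90 in titled GFP+ libraries and between 6.42 and 6.52 in titled GFP- libraries, so a scaling between arrays bears on small differences. The arrays carry 5222 negative control probe sets, whose median on each array, between 5.15 and 5.67, is used as the background level. Since it is a median, many negative controls lie above it. Where a gene was not above it in any library of a group, its level there is only a bound. Folds given as at least a value rest on this level and not on a stricter one. In sorted pools, fewer cells of a type and less RNA per cell cannot be told apart.

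Of the 6 measured members, 4 matched a RefSeq promoter entry, and their sequences are shown. All 4 were called higher in the titled GFP+ libraries, Neurog1 with signals under the background level. Each run holds the 250 bases before an annotated start (RefSeq, GRCm38.p6), 5′ to 3′ on the gene's strand. Capitals mark E-boxes, CANNTG, the site that basic helix-loop-helix factors of the Neurog1 type bind. Lgr5 and St18 are named only.
Hes6, first start, chr1:91414039-91414288, minus strand: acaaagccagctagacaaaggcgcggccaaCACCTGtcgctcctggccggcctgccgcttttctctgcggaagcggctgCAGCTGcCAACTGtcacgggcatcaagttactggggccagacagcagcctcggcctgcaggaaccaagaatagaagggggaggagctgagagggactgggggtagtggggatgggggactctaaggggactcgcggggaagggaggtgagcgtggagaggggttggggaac
Hes6, other start, chr1:91413223-91413472, minus strand: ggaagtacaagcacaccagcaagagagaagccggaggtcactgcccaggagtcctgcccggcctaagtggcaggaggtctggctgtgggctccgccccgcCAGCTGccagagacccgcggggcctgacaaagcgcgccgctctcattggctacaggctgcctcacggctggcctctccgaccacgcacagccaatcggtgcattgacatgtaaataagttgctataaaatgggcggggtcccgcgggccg
Sox11, chr12:27342719-27342968, minus strand: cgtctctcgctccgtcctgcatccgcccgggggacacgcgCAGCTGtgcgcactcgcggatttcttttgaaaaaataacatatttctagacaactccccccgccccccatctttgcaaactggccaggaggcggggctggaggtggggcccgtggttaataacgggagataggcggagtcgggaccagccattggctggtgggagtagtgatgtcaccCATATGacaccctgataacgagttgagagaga
Kit, first of 2 starts, chr5:75574737-75574986, plus strand: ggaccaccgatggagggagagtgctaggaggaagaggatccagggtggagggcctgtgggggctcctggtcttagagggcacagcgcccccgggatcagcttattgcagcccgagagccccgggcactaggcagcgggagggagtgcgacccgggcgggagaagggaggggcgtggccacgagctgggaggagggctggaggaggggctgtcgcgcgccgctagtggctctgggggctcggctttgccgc
Neurog1, chr13:56252181-56252430, minus strand: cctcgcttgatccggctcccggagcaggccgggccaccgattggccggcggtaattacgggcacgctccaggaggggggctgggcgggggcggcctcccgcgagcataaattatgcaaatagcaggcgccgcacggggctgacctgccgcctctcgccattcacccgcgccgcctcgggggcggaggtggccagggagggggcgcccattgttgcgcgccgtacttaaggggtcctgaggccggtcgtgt
Positions are those of a motif's first base, with the base before the start as -1. The first Hes6 sequence has E-boxes at -220, -171 and -164, and the other has 1 at -150. Sox11 has them at -210 and -32, and the Kit and Neurog1 sequences have none. The form CAGCTG, which reads the same on both strands, is at -171 and -150 in the Hes6 sequences and at -210 in Sox11. The form CAGATG, searched on both strands, had 0 matches in each sequence shown. Among 32851 upstream sequences of the same length, 66.2% held CANNTG, 13% held CAGCTG and 14.4% held CAGATG on either strand. The N-box CACNAG, the site of Hes-type repressors, searched on both strands, occurs in 36.7% of them, with 3 matches before Kit (-126, -73 and -30), 1 before Sox11 (-55), 1 in the other Hes6 sequence (-237) and none in the remaining ones. CAGCTG is a form of CANNTG, and no N-box overlapped an E-box. The sequences were richer in G and C than the median upstream sequence of 52.4%: 71.2% for Neurog1, 70.8% for Kit, 58% for Sox11, and 63.6% and 64% for Hes6. A match of letters describes the sequence and does not show binding.

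**Figure D1:**
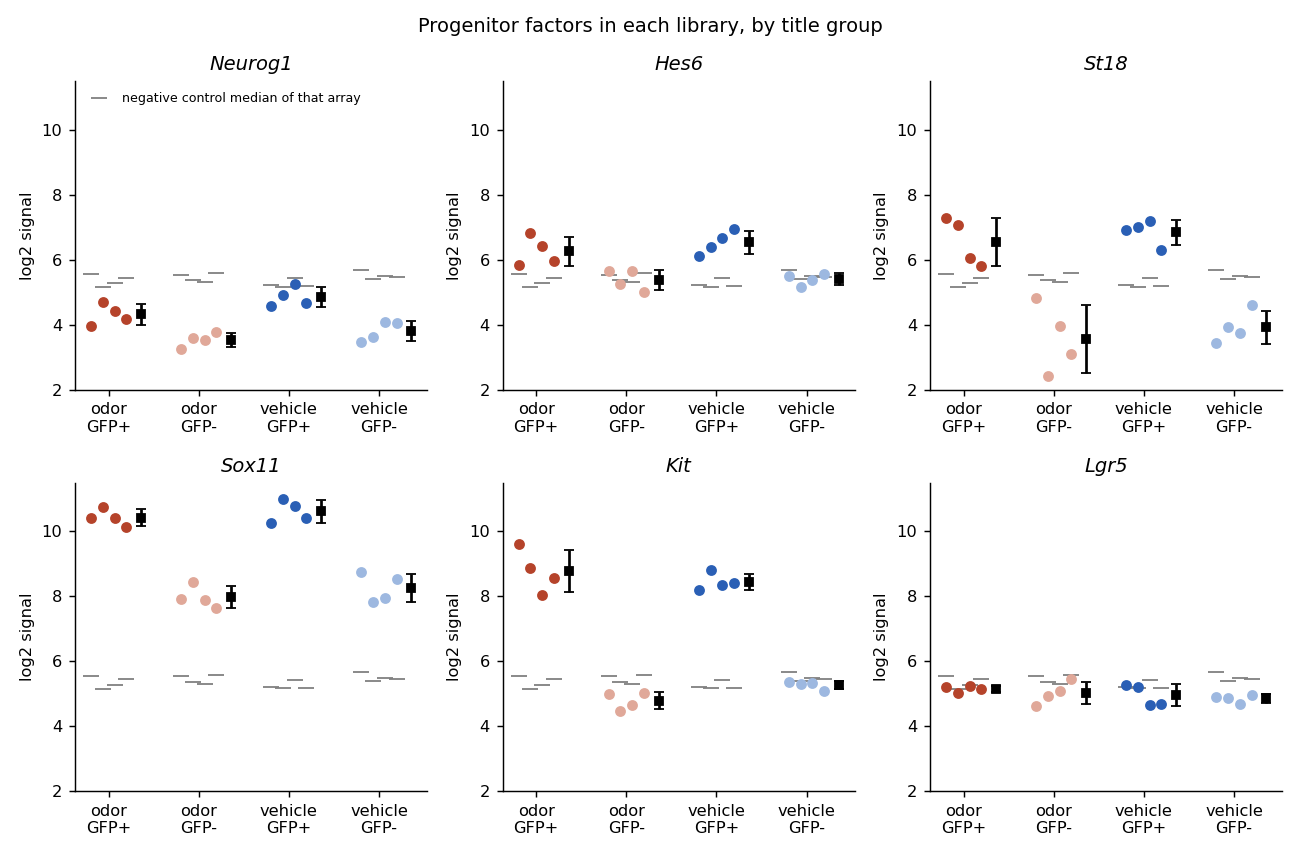
Log2 signal of the 6 measured genes (y axis) in each library, by title group (x axis); points are the 4 pools of a group, squares with bars are the mean ± SD, and grey dashes are the negative control median of that array. Kit, St18, Sox11 and Hes6 lie above the dashes in all 8 titled GFP+ libraries, Neurog1 lies below them in all 16 libraries, and Lgr5 lies near or below them.

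The sort comparison asked which RNAs differed between titled GFP+ and titled GFP- cells of the same pools. The main fit compared group means without pairing by pool, and a fit with the pool as a block is given in the last section. Of the 6 measured members, 5 were higher in titled GFP+ and 0 were lower, with the odor and with the vehicle alike: Kit, St18, Sox11, Hes6 and Neurog1. Only Lgr5 did not pass. Over all probe sets, 20.9% passed in the odor pools (11% higher, 9.86% lower) and 17.3% in the vehicle pools (10.2% higher, 7.16% lower), by limma with Benjamini-Hochberg adjustment at 0.05. The odor count of 4638 probe sets was 3037 without odor pool 1. The median difference of the 6 members was 1.67 with odor and 1.74 with vehicle, against -0.14 and -0.13 over all probe sets.

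Kit differed between the sorts with both agents. Its log2 signals with odor were 9.61, 8.87, 8.06 and 8.58 in titled GFP+ libraries of pools 1 to 4, against 5.01, 4.48, 4.66 and 5.04 in titled GFP- libraries. With vehicle they were 8.20, 8.80, 8.36 and 8.42 in titled GFP+, against 5.36, 5.30, 5.34 and 5.08 in titled GFP-. The sorts did not overlap with either agent, and no titled GFP- library rose above the background level. The measured difference was 3.99 with odor (95% interval 3.47 to 4.51, adjusted p = 2.23e-09) and 3.17 with vehicle (2.66 to 3.69, adjusted p = 3.94e-08), by limma. Since the titled GFP- level is only a bound, titled GFP+ was at least 10.1-fold higher with odor and at least 7.66-fold higher with vehicle. These bounds set the background level of each array in place of the dimmer value. No library exceeded the stricter level of the 95th percentile of the negative controls for Kit, and with values raised to it only the gap between the arrays' floors is left, 0.12 with odor and -0.20 with vehicle.

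St18, a zinc finger transcription factor of the Myt1 family, ranged most widely among pools. With odor it measured 7.28, 7.06, 6.06 and 5.80 in titled GFP+ and 4.81, 2.41, 3.95 and 3.10 in titled GFP-. With vehicle it measured 6.91, 7.00, 7.18 and 6.30 in titled GFP+ and 3.43, 3.92, 3.73 and 4.62 in titled GFP-. All 8 titled GFP+ libraries stood above background and all 8 titled GFP- libraries below it, so the spread among titled GFP- libraries is of values under the floor. The titled GFP+ signals exceeded between 57.6% and 82.4% of the negative controls of their arrays. None passed the 95th percentile, and with values raised to it only the floors' gap of 0.12 with odor and -0.20 with vehicle was left. The measured differences were 2.98 with odor (2.06 to 3.91, adjusted p = 6.42e-05) and 2.92 with vehicle (2.00 to 3.85, adjusted p = 8.48e-05) by limma, and against the floor titled GFP+ was at least 2.14-fold and at least 2.53-fold higher.

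Sox11, a SoxC transcription factor of young neurons, was above background in every library and is the only member whose difference was measured on both sides in all pools. With odor its values were 10.40, 10.76, 10.42 and 10.14 in titled GFP+ and 7.91, 8.45, 7.89 and 7.66 in titled GFP-. With vehicle they were 10.27, 11.01, 10.78 and 10.40 in titled GFP+ and 8.74, 7.84, 7.95 and 8.53 in titled GFP-. The lowest titled GFP+ library thus lay above the highest titled GFP- library. Titled GFP+ was 5.47-fold higher with odor (log2 difference 2.45, interval 1.97 to 2.94, adjusted p = 3.74e-07) and 5.10-fold higher with vehicle (2.35, 1.86 to 2.83, adjusted p = 6.76e-07), by limma. Sox11 alone among the members also exceeded the 95th percentile of the negative controls, which lay between 9.39 and 10.09, and it did so in the 8 titled GFP+ libraries.

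Hes6, a Hes-family protein that favours neuronal differentiation by opposing Hes1, had a smaller difference. With odor its values were 5.85, 6.81, 6.43 and 5.95 in titled GFP+ and 5.64, 5.24, 5.65 and 5.01 in titled GFP-. With vehicle they were 6.13, 6.39, 6.66 and 6.95 in titled GFP+ and 5.49, 5.17, 5.39 and 5.57 in titled GFP-. Hes6 was above background in all 8 titled GFP+ libraries, in 2 of 4 titled GFP- libraries with odor and in 1 of 4 with vehicle. The titled GFP+ signals exceeded between 55.2% and 80.8% of the negative controls of their arrays. None passed the 95th percentile, and with values raised to it only the floors' gap of 0.12 with odor and -0.20 with vehicle was left. The sorts did not overlap, although the odor pool 1 library titled GFP+ was only 0.21 above its partner. The difference was 0.88 with odor (0.41 to 1.35, adjusted p = 0.00857) and 1.13 with vehicle (0.66 to 1.60, adjusted p = 0.00126), by limma. The odor call was lost without odor pool 2 (0.65, adjusted p = 0.0740) and under quantile normalization (0.61, adjusted p = 0.0607), and the odor difference was 0.51 after centring each array on its median.

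Neurog1, the proneural factor that commits globose basal daughters to the neuronal fate, stayed below the background level in all 16 libraries. With odor it measured 3.97, 4.70, 4.41 and 4.19 in titled GFP+ and 3.25, 3.60, 3.52 and 3.78 in titled GFP-. With vehicle it measured 4.57, 4.92, 5.26 and 4.68 in titled GFP+ and 3.47, 3.63, 4.08 and 4.04 in titled GFP-. The sorts did not overlap, and the limma differences of 0.78 with odor (0.37 to 1.19, adjusted p = 0.00811) and 1.05 with vehicle (0.64 to 1.47, adjusted p = 0.000737) passed. No fold is given, because both sides lie under the floor. Of the 6802 probe sets that were above the background level in no library, 2.03% were called higher with odor and 1.43% with vehicle. The odor call was lost after median centring (0.42, adjusted p = 0.0718), and with values raised to the floor the difference was -0.09 with odor and -0.26 with vehicle.

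Lgr5 did not differ beyond its spread. With odor its values were 5.22, 5.02, 5.24 and 5.14 in titled GFP+ and 4.63, 4.95, 5.08 and 5.46 in titled GFP-. With vehicle they were 5.28, 5.21, 4.66 and 4.70 in titled GFP+ and 4.91, 4.87, 4.68 and 4.98 in titled GFP-. The sorts overlapped, and the signal was above background in 2 of 16 libraries, the titled GFP+ libraries of vehicle pools 1 and 2. The difference was 0.12 with odor (-0.25 to 0.50, adjusted p = 0.653) and 0.10 with vehicle (-0.27 to 0.47, adjusted p = 0.735), by limma, and it was negative after median centring (-0.24 with odor, -0.27 with vehicle).

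Within pools, the library titled GFP+ was higher in 8 of 8 pools for Kit (2.84 to 4.60), St18 (1.68 to 4.65), Sox11 (1.52 to 3.18), Hes6 (0.21 to 1.57) and Neurog1 (0.41 to 1.29). For Lgr5 it was higher in 5 of 8 pools (-0.32 to 0.58). The values of Kit, St18, Sox11, Hes6 and Neurog1 did not overlap between sorts with either agent, which over all probe sets held in that direction for 10.5% with odor and 11.3% with vehicle.

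**Figure D2:**
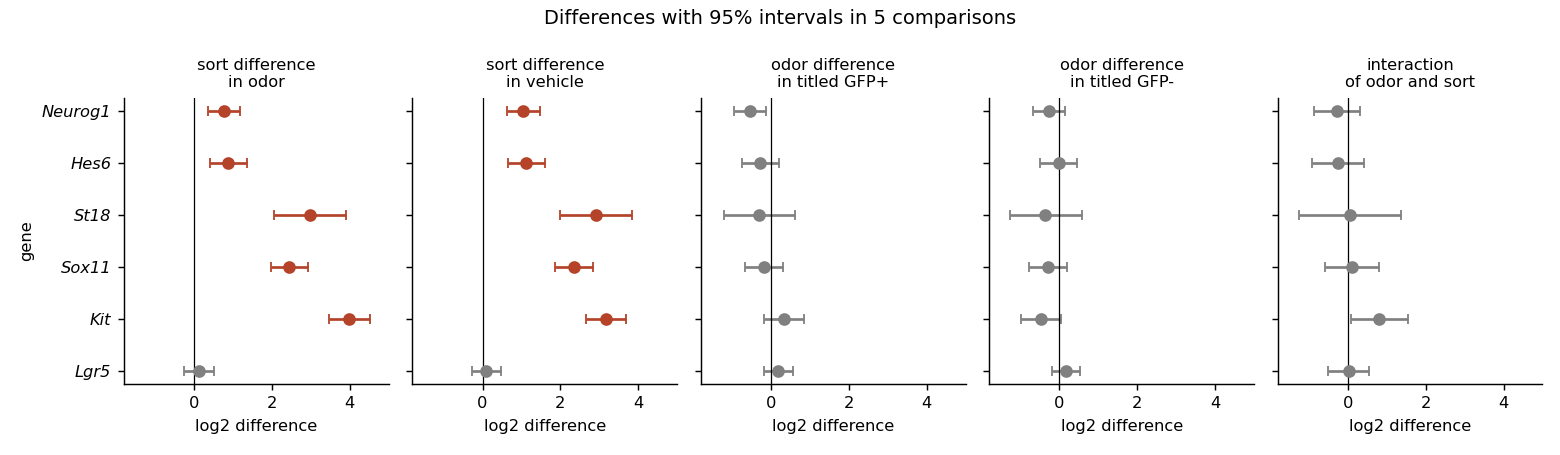
Log2 differences of the 6 genes (x axis) with 95% intervals in 5 comparisons, 1 panel each; red marks an adjusted p below 0.05 (limma) and grey marks the rest. In both sort panels 5 genes lie to the right of 0 and Lgr5 spans it, and in the odor and interaction panels no gene is red.

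The odor comparison asked whether the pulses of isoamyl acetate changed these RNAs within a titled sort. None of the 6 members passed in either sort. Over all probe sets, 0.00901% passed in titled GFP+ libraries (2 probe sets, and 1 with the replicate number as a block) and 0.018% in titled GFP- libraries (4), while 4.83% and 3.3% had an unadjusted p below 0.05. In titled GFP+, odor minus vehicle was -0.54 for Neurog1 (-0.95 to -0.12, unadjusted p = 0.0139, adjusted p = 0.968 by limma), the only member under an unadjusted 0.05 in either sort. Those Neurog1 values lie under the floor and the agents overlap. For the others in titled GFP+ the differences were 0.34 for Kit, 0.19 for Lgr5, -0.18 for Sox11, -0.27 for Hes6 and -0.30 for St18, with adjusted p between 0.968 and 0.985 by limma. The interval for Sox11 in titled GFP+ ran from -0.67 to 0.30, and that for St18 from -1.22 to 0.63.

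In titled GFP-, the odor differences ran from -0.47 for Kit to 0.17 for Lgr5, all with an adjusted p of 1.00 by limma. The 4 Kit values with odor, 5.01, 4.48, 4.66 and 5.04, all lay below the 4 with vehicle, 5.36, 5.30, 5.34 and 5.08. Both groups are under the background level, and 0.982% of all probe sets separated in that direction. The interaction, the sort difference with odor minus that with vehicle, was 0.81 for Kit (0.08 to 1.55, unadjusted p = 0.0325, adjusted p = 1.00 by limma). It is made partly of the Kit values under the floor, and with values raised to the background level it was 0.40 (adjusted p = 0.626). The other members had interactions between -0.27 and 0.10 with an adjusted p of 1.00. Over all probe sets 0.0045% passed (1 probe set, and 0 with the pool as a block), and 2.94% had an unadjusted p below 0.05.

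For Kit, St18, Sox11 and Hes6 every library of both titled GFP+ groups lay above every library of both titled GFP- groups. For Neurog1 the group means kept that order, but the odor titled GFP+ library of pool 1 (3.97) lay below the vehicle titled GFP- libraries of pools 3 and 4 (4.08 and 4.04). The share of all probe sets that separate the sorts in this way over both agents was not counted. For these 5 genes the order of odor and vehicle within a sort was not separated by the test. The means in titled GFP+ were 8.78 ± 0.65 with odor and 8.44 ± 0.25 with vehicle for Kit, 6.55 ± 0.73 and 6.85 ± 0.38 for St18, and 10.43 ± 0.26 and 10.61 ± 0.34 for Sox11 (SD, n = 4 each). They were 6.26 ± 0.45 with odor and 6.53 ± 0.35 with vehicle for Hes6, and 4.32 ± 0.31 and 4.86 ± 0.31 for Neurog1. Lgr5 averaged between 4.86 and 5.15 in the 4 groups.

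**Figure D3:**
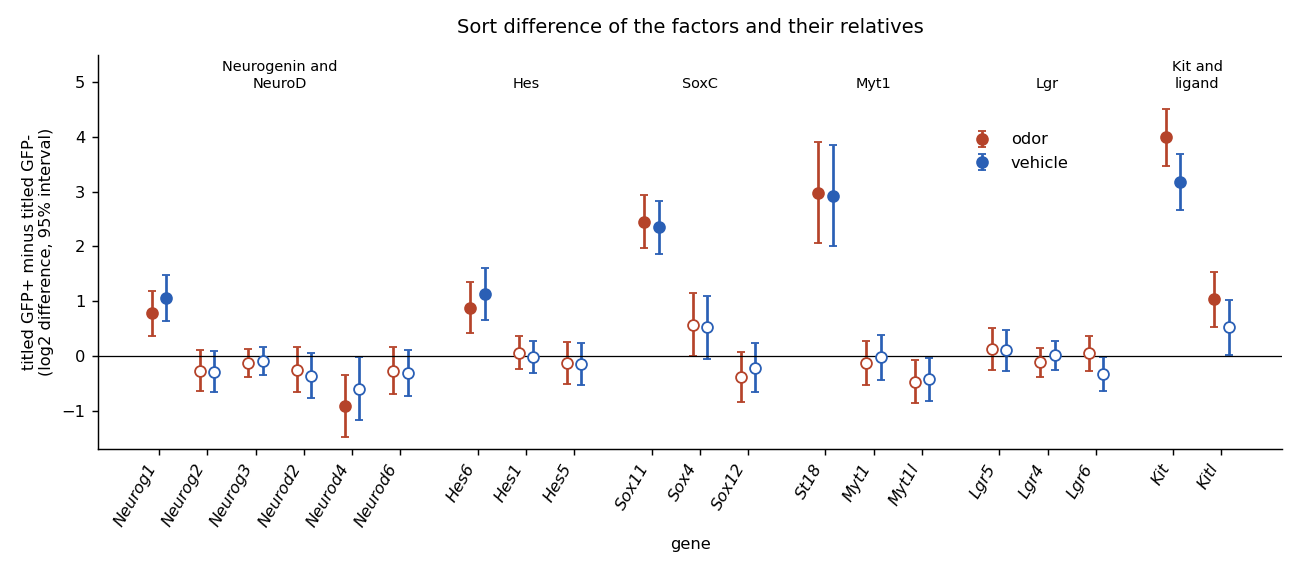
Titled GFP+ minus titled GFP- log2 difference with its 95% interval (y axis) for the members and their relatives (x axis), with odor in red and vehicle in blue; filled points have an adjusted p below 0.05 (limma). Each of Hes6, Sox11, St18 and Kit lies above its relatives, and among the relatives only Kitl and Neurod4 have a filled point, with odor.

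Close relatives of the members were set beside them, whatever their values. Of the 14 relatives, 12 passed in no sort comparison. The other neurogenins, Neurog2 (-0.27 with odor, -0.30 with vehicle) and Neurog3 (-0.13 and -0.09), and the NeuroD genes Neurod2 (-0.25 and -0.36) and Neurod6 (-0.27 and -0.32) did not pass and were under background in all 16 libraries. Neurod4, a NeuroD-family factor, was also under background throughout and was called lower with odor (-0.92, adjusted p = 0.0213) but not with vehicle (-0.60, adjusted p = 0.143), by limma, and the odor call was lost when arrays were centred on mature neuron markers. The Notch effectors Hes1 (0.06 and -0.02) and Hes5 (-0.14 and -0.15) did not pass either, and Hes1 was under background throughout. The SoxC genes Sox4 (0.57 with odor, adjusted p = 0.155; 0.52 with vehicle, adjusted p = 0.212) and Sox12 (-0.38 and -0.22) did not pass by limma.

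Myt1 (-0.13 with odor, -0.03 with vehicle) and Myt1l (-0.47 and -0.43), the zinc finger relatives of St18, were well above background in all libraries and did not pass. Nor did the R-spondin receptors Lgr4 (-0.12 and 0.01), well above background in all libraries, and Lgr6 (0.05 and -0.34), under background in all libraries. Kitl, which encodes the ligand of Kit, was called higher with odor, at 6.18 ± 0.20 in titled GFP+ and 5.14 ± 0.43 in titled GFP- (SD, n = 4 each; 1.04, adjusted p = 0.00438 by limma). With vehicle Kitl stood at 5.77 ± 0.39 in titled GFP+ and 5.25 ± 0.40 in titled GFP- (0.52, adjusted p = 0.151). No test compared a member with its relatives.

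Of 27 other measured transcription factors of globose basal cells and neurogenesis, 9 were called higher and 2 lower with odor, and 9 higher and 1 lower with vehicle, with medians of -0.13 and -0.07 that lie close to those of all probe sets. The balance depends on the scaling. After centring each array on its median 9 were called higher and 16 lower with odor, and 7 higher and 15 lower with vehicle. Under that scaling most of all probe sets were called lower, and their median was -0.50 with each agent. That background also applies to the median-centred counts of the lists below. On mature neuron markers 10 of these factors were called higher with odor and 9 with vehicle, with 0 lower. The helix-loop-helix factor Nhlh1, which follows the proneural factors, with odor averaged 9.14 ± 1.31 in titled GFP+ against 5.09 ± 0.60 in titled GFP-, and with vehicle 9.81 ± 0.30 in titled GFP+ against 4.57 ± 0.46 in titled GFP- (SD, n = 4 each). Its differences were 4.05 with odor (adjusted p = 5.12e-06) and 5.24 with vehicle (adjusted p = 2.60e-07), by limma, and no vehicle titled GFP- library was above background, so that titled GFP+ was at least 19.8-fold higher with vehicle. Its homologue Nhlh2 (2.07 with odor and 2.63 with vehicle), the homeobox gene Otx2 (4.68 and 4.23) and the inhibitor of helix-loop-helix factors Id2 (2.10 and 1.76) were called higher with both agents. Otx2 was under background in all titled GFP- libraries, which gives at least 19.8-fold with odor and at least 12.6-fold with vehicle. Also called higher with both agents were Sox2 (1.67 and 1.60) and Pax6 (1.24 and 1.28), factors of basal and sustentacular cells, and Insm1 (0.95 and 1.45), which promotes the last divisions of neuronal progenitors and was under background in titled GFP- (at least 1.49-fold and 1.55-fold). Id4, a relative of Id2, was called lower with odor (-0.47, adjusted p = 0.0132) and with vehicle (-0.39, adjusted p = 0.0426), by limma. Both Id4 calls were lost when arrays were centred on mature neuron markers. Lhx2, Ebf1, Ebf2, Ebf3 and Ebf4, far above background in all libraries, passed with neither agent.

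In the Notch list of 20 genes, 7 were called higher and 1 lower with odor, and 6 higher and 1 lower with vehicle. After median centring they were 4 higher and 9 lower with odor, and 3 higher and 10 lower with vehicle. With vehicle they were 5 higher and 2 lower after quantile normalization, and 8 higher and 0 lower with each agent on mature neuron markers. Those with the widest measured vehicle differences were the Fringe glycosyltransferases Mfng (2.01 with odor, 2.31 with vehicle) and Lfng (2.26 and 2.05), the receptor Notch2 (1.75 and 1.73), and the ligand Jag1, which was called lower with vehicle (-1.01, adjusted p = 0.0413) and not with odor (-0.66, adjusted p = 0.165), by limma. The Jag1 call was lost when arrays were centred on mature neuron markers. Mfng, Lfng and Notch2 were under background in all titled GFP- libraries, and their differences against the floor were 1.04, 1.25 and 1.14 with odor and 1.29, 1.06 and 0.93 with vehicle. Notch2 is also a sustentacular cell gene.

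Among 13 measured genes of Kit ligand and signalling, 7 were called higher with odor and 6 with vehicle, and 0 lower. After median centring 5 were called higher and 3 lower with odor, and 3 higher and 3 lower with vehicle, and after quantile normalization 4 were higher and 1 lower with vehicle. The phosphatase Ptpn6, best known from blood cells, was higher by a log2 difference of 2.59 with odor and 2.77 with vehicle, and the adaptor Sh2b3 was called too. Sh2b3 was under background in all titled GFP- libraries, so that titled GFP+ was at least 1.70-fold higher with odor and at least 1.44-fold higher with vehicle. Pik3r1, a regulatory subunit of the lipid kinase PI3K (1.17 and 1.03), and the docking protein Gab2 (1.38 and 0.83) were also called, and the Gab2 call with vehicle was lost after median centring and quantile normalization.

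In the list for Lgr5 and Wnt signalling, 4 of 19 measured genes were called higher and 1 lower with odor, and 4 higher and 0 lower with vehicle. After median centring 2 were higher and 9 lower with odor, and 2 higher and 11 lower with vehicle. After quantile normalization they were 5 and 3 with odor and 3 and 1 with vehicle, and on mature neuron markers 9 and 6 were higher and 0 lower. Tcf7l2, a transcription factor of the Wnt pathway, was under background in all titled GFP- libraries, and titled GFP+ was at least 4.85-fold higher with odor and at least 3.82-fold higher with vehicle. The co-receptor Lrp5 was also called with both agents, but it was above background in 2 of 4 titled GFP+ libraries with each agent and in 0 titled GFP- libraries, and against the floor its difference was 0.04 with each. In the cell cycle list, 12 of 13 measured genes were called higher with each agent and 0 lower, with medians of 2.25 with odor and 2.31 with vehicle. Mki67 (5.15 and 5.44), Ccnb2 (4.14 and 3.95) and Rrm2 (3.20 and 3.72), genes of dividing cells of any type, were among them. So was Ube2c, which was under background in all titled GFP- libraries and at least 13.5-fold higher in titled GFP+ with odor and at least 15.8-fold with vehicle.

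**Figure D4:**
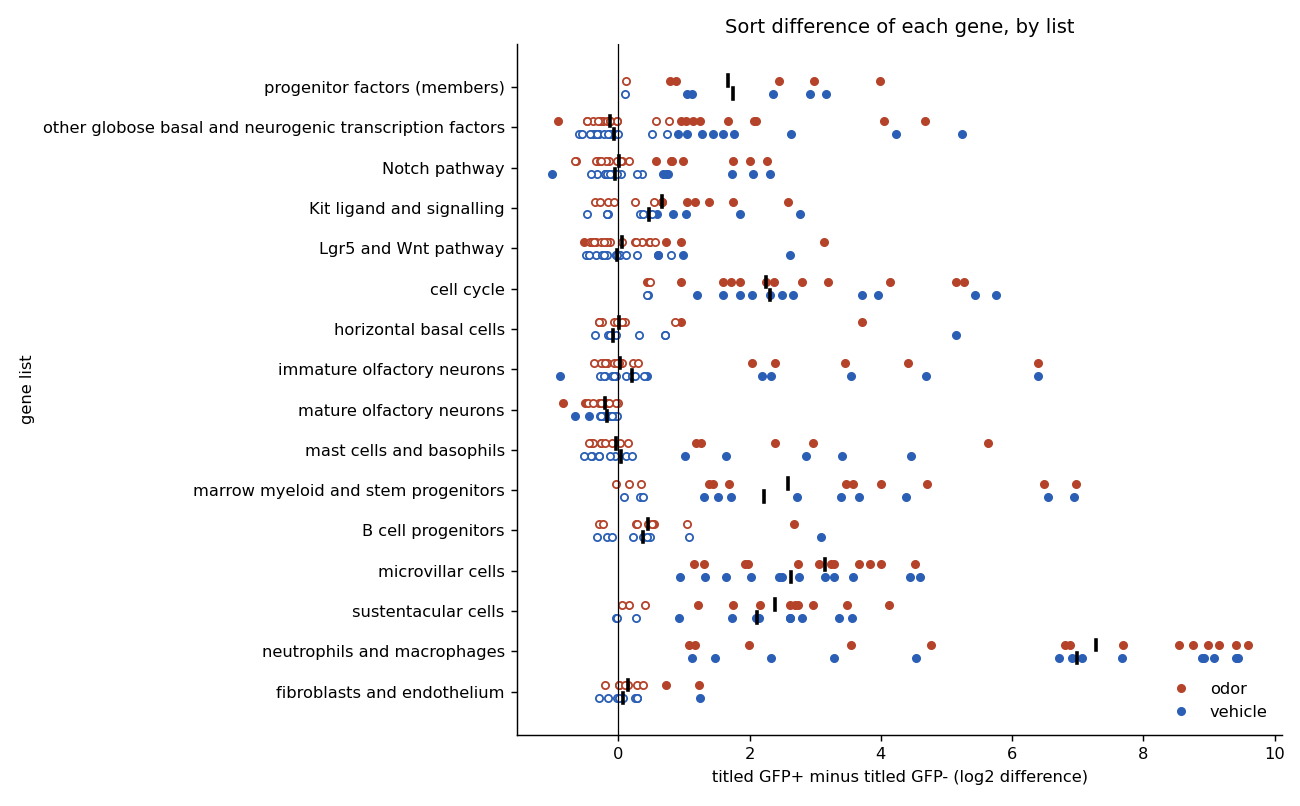
Titled GFP+ minus titled GFP- log2 difference (x axis) of each measured gene in 16 lists (rows), with odor in red and vehicle in blue; filled points have an adjusted p below 0.05 (limma) and black bars are list medians. The members' medians are 1.67 with odor and 1.74 with vehicle, and the lists of neutrophils and macrophages (7.29 and 6.99), microvillar cells (3.15 and 2.63) and marrow progenitors (2.58 and 2.22) lie further right.

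Markers of other cells moved with the members, and those values stand here because Kit and the cell cycle genes are shared with blood lineages. Of 12 measured marrow progenitor genes, 9 were called higher with each agent and 0 lower, and the log2 of the summed signal of all 12 lay between 13.38 and 14.85 in titled GFP+ against 9.50 to 9.77 in titled GFP- with odor, and between 14.03 and 14.53 in titled GFP+ against 9.29 to 9.70 in titled GFP- with vehicle. The granule protein genes Mpo (6.97 with odor, 6.94 with vehicle) and Elane (6.48 and 6.55) and the progenitor factor Myb (4.70 and 4.39) led them. Of 14 neutrophil and macrophage genes, 14 were called higher with each agent, with summed levels between 18.70 and 19.88 in titled GFP+ against 10.05 to 11.81 in titled GFP- with odor, and between 18.80 and 19.28 in titled GFP+ against 9.86 to 11.29 in titled GFP- with vehicle.

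Of 14 mast cell and basophil genes, 5 were called higher with each agent: Hdc (5.63 with odor, 4.46 with vehicle), which makes histamine, Cpa3 (2.96 and 3.41), the basophil protease Mcpt8 (2.38 and 2.86), Gata2 (1.26 and 1.64) and Ms4a2 (1.19 and 1.01), a chain of the IgE receptor. After median centring 7 of the 14 were called lower with each agent, beside the 5 higher. Most of all probe sets were also called lower under that scaling. Mcpt8, Gata2 and Ms4a2 were under background in all titled GFP- libraries; against the floor titled GFP+ was at least 1.96-fold and 2.75-fold higher for Mcpt8 and at least 1.67-fold and 1.64-fold for Gata2, and Ms4a2 was above background in 1 of the 8 titled GFP+ libraries. The log2 summed level of all 14 genes lay between 10.88 and 13.06 in titled GFP+ against 8.26 to 8.60 in titled GFP- with odor, and between 10.81 and 11.86 in titled GFP+ against 8.24 to 8.46 in titled GFP- with vehicle. The connective tissue mast cell proteases Mcpt4, Cma1, Tpsb2 and Tpsab1 were under background in all 16 libraries. The part of blood cells in the Kit difference was not tested.

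Microvillar cell genes were called higher in 12 of 12 with each agent and sustentacular genes in 9 of 12, with 0 lower. After median centring, 11 microvillar genes were called higher with vehicle, and 8 sustentacular genes were called higher and 1 lower. The summed microvillar level lay between 14.09 and 15.09 in titled GFP+ against 11.11 to 11.60 in titled GFP- with odor, and between 13.53 and 14.58 in titled GFP+ against 11.17 to 11.32 in titled GFP- with vehicle. The sustentacular level lay between 15.58 and 17.28 in titled GFP+ against 13.72 to 14.49 in titled GFP- with odor, and between 15.40 and 16.45 in titled GFP+ against 13.36 to 13.93 in titled GFP- with vehicle. Their part in the members' differences was not tested either.

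For horizontal basal cells, 2 of 10 genes were called higher with odor and 1 with vehicle, and after median centring 4 were lower with odor and 5 with vehicle. Krt5 and Trp63, which define these cells, were under background in all 16 libraries, and Krt14 (0.10 and -0.15) did not pass. The called gene Cd44 (3.71 and 5.14) is also carried by blood cells. Immature neuron genes were called higher in 5 of 18 with odor, with 0 lower, and in 6 of 18 with vehicle, with 1 lower, led by Cd24a (6.40 and 6.40), which blood cells also carry, by the G protein subunit Gng8 (4.42 and 4.69) and by Dpysl3 (3.45 and 3.54) and Gap43 (2.39 and 2.32), genes of axon growth. The list medians were 0.03 with odor and 0.22 with vehicle. Trib3 was the gene called lower with vehicle (-0.89, adjusted p = 0.0285 by limma), and with odor it did not pass (-0.37). Its call was lost when arrays were centred on mature neuron markers. Dcx (-0.22 with odor, -0.28 with vehicle), Tubb3 (-0.18 and -0.04) and Ncam1 (-0.26 and -0.10) did not pass. After median centring 5 immature neuron genes were called higher and 8 lower with odor, and 5 higher and 7 lower with vehicle. Cd24a was under background in all titled GFP- libraries, which gives at least 71.2-fold with odor and at least 64.3-fold with vehicle. Mature neuron genes were called lower in 2 of 15 with each agent and higher in 0, but in 13 of 15 with each agent after median centring (medians -0.57 with odor and -0.54 with vehicle). The median over all probe sets was -0.50 with each agent under that scaling. Of 9 B cell progenitor genes, 2 were called higher with odor and 1 with vehicle, and the same counts held for the 9 fibroblast and endothelial genes. After median centring 2 and 3 of the B cell genes and 1 and 4 of the fibroblast and endothelial genes were called lower, with odor and with vehicle, and 1 higher in each case.

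**Figure D5:**
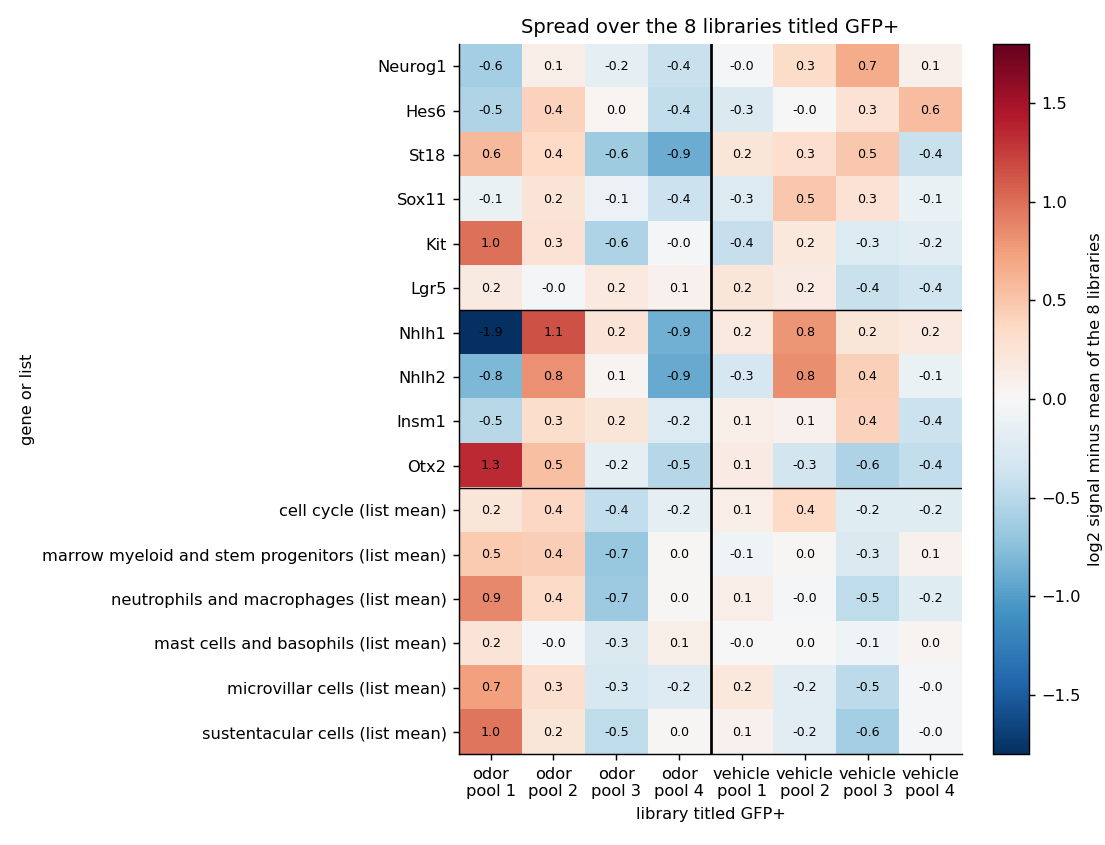
Deviation of each gene, or of a list's mean log2 signal, from its mean over the 8 libraries titled GFP+ (colour and printed value, log2), by library (columns) and gene or list (rows). The odor pool 1 library has the highest Kit (1.00) and the lowest Neurog1 (-0.62) and Hes6 (-0.55).

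Within the 8 titled GFP+ libraries the members did not vary as a block. The odor pool 1 library had the highest Kit, 1.00 above the mean of the 8, and also the highest St18 (0.58), and it had the lowest Hes6 (-0.55) and the lowest Neurog1 (-0.62), whose values all lie under the background level. In the same library Nhlh1 was -1.86 and Nhlh2 -0.81 from the mean, while Otx2 was at 1.34. The list means of sustentacular genes (0.96), neutrophil and macrophage genes (0.86), microvillar genes (0.74) and marrow progenitor genes (0.47) were also at their highest there. In the odor pool 3 library, Kit was lowest (-0.55), and so were the means of marrow progenitor genes (-0.68), of neutrophil and macrophage genes (-0.65) and of cell cycle genes (-0.44). Pool 2 held the highest Sox11 of each agent, 10.76 with odor and 11.01 with vehicle, and the highest Nhlh1 (1.15 and 0.79).

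After each group's mean was subtracted, the 16 libraries gave Pearson correlations of 0.45 between Kit and St18, 0.36 between Sox11 and Hes6, and 0.31 between Neurog1 and Hes6, against -0.24 between Kit and Neurog1 and -0.26 between Kit and Hes6. The largest of the 15 pairs in size was -0.60 between Lgr5 and Hes6, with Lgr5 above background in 2 of 16 libraries. The libraries of a pool share animals, and these correlations are a description over 16 libraries. Ranked the same way over all named genes, the closest to Kit were B4galt6 (0.895), H2-K1 (0.893) and Rab8b (0.884). How high the top of such a ranking reaches for unrelated genes was not tested. The closest to Sox11 were Neurog3 (0.874, under background in all 16 libraries), Ctbp1 (0.823) and Helz (0.822). For Neurog1 they were Rag2 (0.846), Tmem216 (0.817) and Rcc1 (0.813), for Hes6 Saysd1 (0.892), Fbxl22 (0.852) and Zfp369 (0.841), for St18 Mrfap1 (0.841), Psmg4 (0.819) and Tex30 (0.817), and for Lgr5 Ofcc1 (0.894), Fancd2 (0.861) and Wfdc16 (0.852).

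Without that subtraction the libraries fall into 2 clusters by titled sort, and a high correlation mainly says that a gene differs between the sorts. The most alike were then Itgb2 (0.992), Ltf (0.991) and Stk17b (0.991) for Kit, Fads2 (0.977), Dapp1 (0.975) and H2ax (0.972) for Sox11, and Slamf7 (0.965), Arhgap18 (0.963) and Gdpd1 (0.962) for St18. They were Rcor2 (0.939), Pltp (0.920) and Gbp7 (0.917) for Hes6, and P2ry6 (0.922), Casr (0.919) and Tubb2a (0.902) for Neurog1. For Lgr5, which did not differ between the sorts beyond its spread, they were lower: Ttc24 (0.839), Tlr5 (0.775) and Efna1 (0.766). The neighbours are listed by rank alone, without their functions. Whether any kind of neighbour is particular to a member was not tested.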

How the data were processed

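Per the labels' protocols, Clariom S arrays received biotinylated cRNA made from 50 to 100 ng of RNA. The values are the log2 signals the authors deposited for each probe set, and the submitters' processing notes name Affymetrix Expression Console as their source. The background correction and scaling of that program were not given in the sources used here. Of 28846 probe sets, 6640 controls were left out of the tests, and 19572 of the remaining 22206 had 1 gene symbol and 2634 none. A gene with several probe sets is the one with the highest mean. The array number limits the precision.

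Groups came from the sample titles. The deposited values were fitted with limma 3.58.1 in R 4.3.3 (lmFit on 4 group means, eBayes without trend, 12 residual degrees of freedom, prior 4.49), with Benjamini-Hochberg adjustment over 22206 probe sets, at 0.05. The 5 comparisons are the sort difference with each agent, the odor difference in each titled sort, and the interaction of odor and sort. The 2 libraries of a pool come from the same mice, so the pool pairs the sorts. Their deviations from the group means correlated at 0.16 to 0.40. Same-numbered odor and vehicle libraries, of different mice, correlated at 0.17 to 0.28 in titled GFP+ and 0.07 to 0.41 in titled GFP-. These ranges overlap, so the correlations do not set the pool apart from the replicate number.

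Genes named are the members, S100a5, family relatives, up to 4 called genes per list with the widest vehicle differences, and the 3 most correlated genes per member. Sox2, Pax6, Insm1, Id4, Lhx2, Ebf1, Ebf2, Ebf3 and Ebf4 were named beside that rule after their values were seen. So were Ms4a2, Mcpt4, Cma1, Tpsb2, Tpsab1, Krt5, Krt14, Trp63, Omp, Trib3, Dcx, Tubb3 and Ncam1. The members and lists were chosen with earlier results of these data known. Alternatives were 3 scalings (centring on the array median, quantile normalization, centring on mature neuron markers), a variance trend, 2 filters and a floor at the negative controls, replicate blocks, and leaving out each pool.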

Additional observations from a re-analysis of the deposited data

How the results depend on the processing

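The 5 members called higher in the sort comparisons numbered 4 or 5 under every alternative except the filter at the 95th percentile of the negative controls, which kept only Sox11 for the test (1 of 1 called with each agent). Without odor replicate 2 the odor call of Hes6 was lost (0.65, adjusted p = 0.0740 by limma), under quantile normalization likewise (0.61, adjusted p = 0.0607), and median centring ended that of Neurog1 (0.42, adjusted p = 0.0718). No member was called in the odor comparisons or the interaction under any alternative run. A floor at the negative control median turned Neurog1 to -0.09 (sort, odor), -0.26 (sort, vehicle), 0.11 (odor, titled GFP+) and 0.16 (interaction), since all its values then equal the floors. It turned Lgr5 to -0.09, -0.23 and, for odor in titled GFP-, -0.06, Hes6 to 0.02 for odor in titled GFP-, and the interaction of St18 to -0.24. Under median centring the sort difference of Lgr5 was -0.24 with odor and -0.27 with vehicle, and 1 and 0 of 4 pools were higher. Under quantile normalization it was -0.02 with odor, with an interaction of -0.05. None of these turned values passed the test.

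Leaving out 1 pool turned the sign of uncalled values alone. The sort difference of Lgr5 with odor ran from -0.03 to 0.27, the interactions from -0.13 to 0.17 for Lgr5, -0.17 to 0.38 for Sox11 and -0.50 to 0.35 for St18, and odor in titled GFP- from -0.77 to 0.03 for St18 and -0.11 to 0.10 for Hes6. Over all probe sets, the odor sort count of 4638 fell to 3037 without odor replicate 1 and reached at most 4430 in the others, and the odor count in titled GFP+ was 0 to 3 against 2.

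The scaling moves the balance of directions over all probe sets. With odor, 2449 were higher and 2189 lower as deposited, 1875 and 13679 after median centring (15554 in all), 2334 and 3300 after quantile normalization, and 3726 and 635 after centring on mature neuron markers. With vehicle, 2260 and 1591 as deposited became 1762 and 13868 (15630 in all), 2148 and 2954, and 2932 and 611. The median of all probe sets was -0.14 with odor and -0.13 with vehicle as deposited, -0.50 with each after median centring, and 0.14 and 0.08 on mature neuron markers. The 95th percentile filter left 7533 probe sets and called 2070 with odor (817 higher, 1253 lower) and 1510 with vehicle (792 and 718). The odor count in titled GFP+ was 0 after median centring and that filter, and 1 with a variance trend. Among listed genes, none named as called changed sign under a scaling. Calls of Gab2, Jag1, Neurod4, Id4 and Trib3 were each lost under at least 1 scaling.

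With the pool as a replicate block, 5 members were again called higher with each agent, over 5787 (odor) and 4675 (vehicle) probe sets in all, and the interaction call count was 0 against 1. With the replicate number as a block, or the pool as a random block (correlation 0.234), the odor count in titled GFP+ was 1. The blocks changed no member's call. Signals near the negative controls limit Neurog1 and Lgr5, for which a low level and no signal cannot be told apart. No group of 4 values among the 28 looked at had an outlying sample by Dixon's test.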
